A study of Mus musculus with 36 samples.

Results

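Mouse T cells with a paracaspase-mutant Malt1 allele and no other functional allele were compared with Malt1-/- T cells. Both were taken after 4 h of stimulation. The comparison takes the 4 arrays whose titles read PM at 4 h (experiments E3 to E6) and the 4 arrays titled hom at 4 h (E3 to E6), which are 8 of the 36 arrays of the series. The genotypes are Malt1PM/- (called PM here) and Malt1-/- (KO). All arrays come from B6.C-Tg(CMV-cre)1Cgn/J mice, in which a CMV promoter drives Cre broadly in the body, so that neither group is a T cell-restricted mutant and both lack a wild-type Malt1 allele. Values of Malt1+/- cells (het, 4 arrays at 4 h), which keep a wild-type allele, are given beside them where they help to place a level.

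MALT1 is the effector subunit of a signalling complex that it forms with BCL10 below the antigen receptor. As a scaffold it recruits TRAF6 and passes the signal to the IkB kinase and NF-kB, and as a protease, a paracaspase, it cuts proteins that restrain the response, among them A20, CYLD, RelB and the RNA-binding proteins Regnase-1 and Roquin. PM against KO therefore sets an allele with a point mutation in the protease beside the Malt1-/- genotype. The title of the series names a threshold function of MALT1 that is separate from the paracaspase activity.

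The design text of the series speaks of 3 biological replicates, while the labels list 4 arrays a group. The labels do not say whether the arrays come from separate mice, so the p-values measure the spread between arrays. In the limma tests this spread is pooled over the arrays of every group of the series, het and the other times included. It is not that of the PM and KO arrays alone. Sex and age are not given. The protocols name total T cells depleted of B220+ and CD11b+ cells as well as CD4+ T cells, and PMA with ionomycin as well as antibodies to CD3 and CD28, without saying which was used for these arrays. Levels are normalized log2 signals of Illumina bead arrays, on which a difference of 1 is 2-fold. Of 25697 probes, 7713 to 9721 were detected on each of the 8 arrays, and 7585 genes were tested. Arrays correlated at 0.954 to 0.981 within PM, at 0.957 to 0.984 within KO and at 0.947 to 0.985 between PM and KO. In bulk RNA, fewer cells of a type and less RNA per cell cannot be told apart.

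Malt1 mRNA itself was measured by 1 probe, which was detected on all 8 arrays. In PM its log2 signal was 5.80, 6.10, 6.55 and 5.93 in E3 to E6, and in KO it was 5.49, 6.24, 5.70 and 5.84. The groups overlapped, and both lay below the het mean of 7.29 ± 0.26 (SD, n = 4). The difference of 0.28 did not pass (limma adjusted p = 0.801), and the exact two-sided permutation test of 4 against 4 arrays gave p = 0.286, where 0.0286 is the smallest p possible. At 1 h the same probe was at 5.29, 5.30, 5.68 and 6.19 in PM, detected on every array. In KO at 1 h it was at 4.74, 4.78, 4.71 and 4.42 and detected on none, though this difference did not pass. At 0 h it was detected on every PM array and on the KO arrays of E3 and E4, and the groups overlapped. The position of this probe on the gene and its distance to the deletion are not known here, and a probe outside the deleted exons would not check the labels.

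Below, a rise or a fall means a higher or lower level in PM than in KO, not a change with stimulation. At 4 h the cytokine gene Il4 was 7.76-fold higher in PM than in KO. Also higher were Il3, Ifng, Lif, Csf2, the chemokine genes Ccl3 and Ccl1, the cytokine signalling inhibitor Cish and the transcription factor genes Gata3 and Tbx21. Lower in PM were Cldn10, a claudin of tight junctions, by 6.32-fold, the aldo-keto reductase gene Akr1c18, and the genes of 3 CD3 chains. Of 7585 genes, 213 passed a limma adjusted p of 0.05 (2.81%), 104 higher in PM (1.37%) and 109 lower (1.44%). Of these, 33 were at least 2-fold higher and 24 at least 2-fold lower. An unadjusted p under 0.05 was reached by 818 genes. The 4 PM and 4 KO values did not overlap for 86 of the 104 higher and 100 of the 109 lower genes, and for 6.96% of all genes tested.

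The counts depended on the scaling and on single arrays. When the arrays were given a common median instead of being quantile normalized, 32 genes passed, 25 higher and 7 lower, so that 78.1% of the calls were higher against 48.8% as reported here, and the median of all genes moved from -0.003 to 0.08. Without the PM array of E5, 114 genes passed (53 higher, 61 lower), and without the KO array of E4, 136 (55 higher, 81 lower). The count of higher genes was 63 without the PM array of E3 and 65 without that of E6. With only these 8 arrays in the fit, 56 passed (22 higher, 34 lower). All 213 genes kept their direction under each of these settings.

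**Figure D1:**
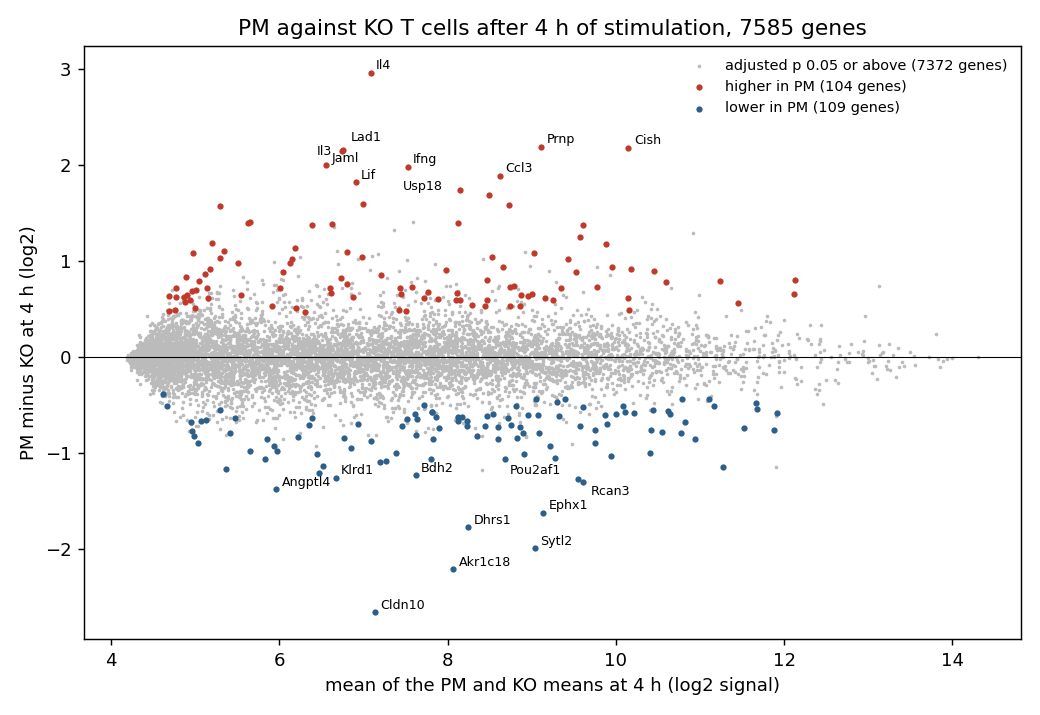
Difference of PM from KO at 4 h (y axis, log2) against the mean of the group means (x axis, log2 signal), 1 point per gene. The 104 red genes are higher and the 109 blue genes lower in PM, with Il4 (2.96) and Cldn10 (-2.66) at the ends, and called genes lie at dim and bright levels alike.

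The largest rise was that of Il4, the cytokine of T helper 2 cells. Its log2 signal was 8.38, 8.28, 8.81 and 8.79 in PM and 5.89, 5.12, 5.52 and 5.91 in KO (E3 to E6), so every PM array was far above every KO array. The difference was 2.96 ± 0.33 (SE, limma adjusted p = 1.18e-06). The het mean of 5.81 ± 0.85 (SD, n = 4) was close to that of KO, and PM was 2.75 above it (adjusted p = 2.84e-06). Il3, a growth factor for myeloid cells and mast cells, was at 7.84, 7.47, 7.54 and 8.39 in PM and at 5.71, 4.76, 6.28 and 5.94 in KO, where it was detected on 3 of 4 arrays. The groups did not overlap, and the difference was 2.14 ± 0.26 (adjusted p = 2.54e-06). Csf2, which encodes GM-CSF and is a near neighbour of Il3 on chromosome 11, was at 6.07, 5.69, 6.92 and 6.76 against 5.20, 4.64, 4.97 and 5.003. No KO array reached the lowest PM array, the difference was 1.41 ± 0.20 (adjusted p = 3.37e-05), and the KO level was above background on 2 of 4 arrays.

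Ifng, the interferon of T helper 1 and CD8 T cells, stood at 8.28, 8.29, 9.32 and 8.18 in PM and at 6.94, 5.95, 6.95 and 6.32 in KO. The PM array of E5 was the highest, the groups were separate, and the difference was 1.98 ± 0.33 (limma adjusted p = 0.000272). A further probe for Ifng gave 1.74. Lif, an IL-6 family cytokine, was at 8.56, 7.74, 7.79 and 7.18 in PM and held between 5.78 and 6.12 on the KO arrays, a difference of 1.81 ± 0.40 (adjusted p = 0.00637). The chemokine gene Ccl3 was at 9.31, 8.54, 10.34 and 10.11 in PM and at 7.89, 6.97, 7.69 and 8.18 in KO. These groups were separate too (1.89 ± 0.49, adjusted p = 0.0271), but the call for Ccl3 held in 12 of 20 alternative settings and was lost without any one of the PM arrays of E5 or E6 or the KO arrays of E4 or E5. Ccl1, a ligand of CCR8, was at 7.14, 6.34, 7.58 and 8.21 against 6.61, 4.65, 5.84 and 6.65, and there the groups overlapped (1.38 ± 0.33, adjusted p = 0.0141).

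**Figure D2:**
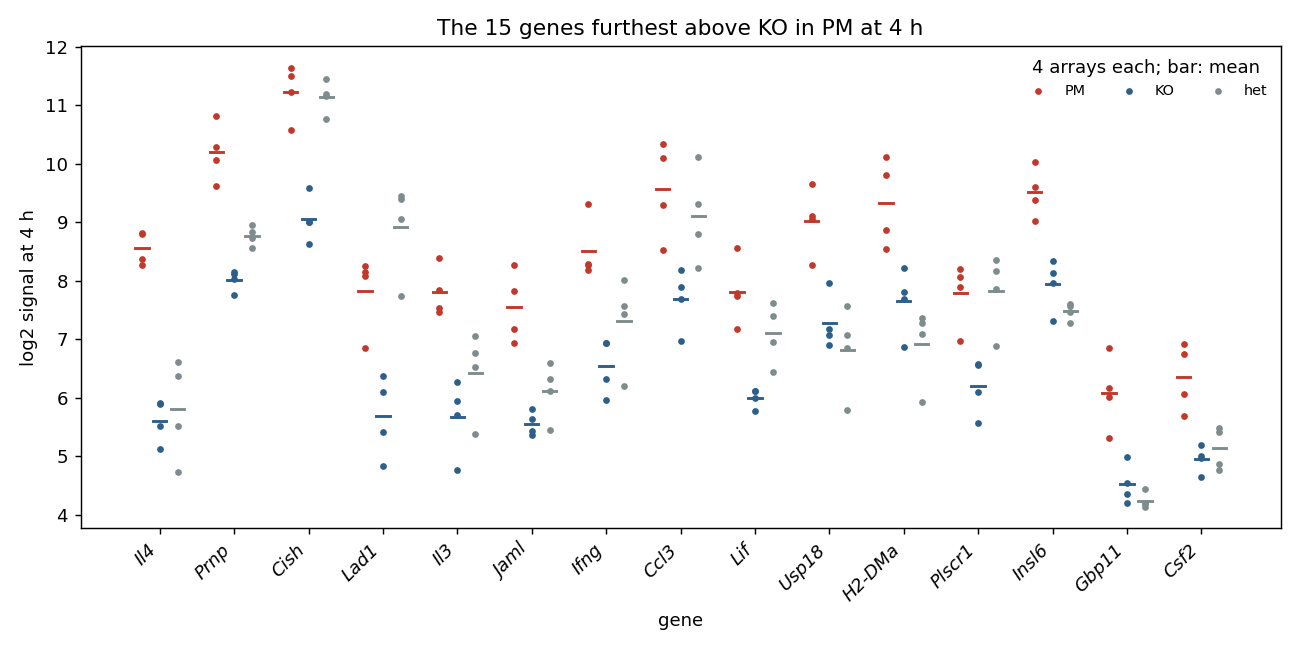
Log2 signal at 4 h (y axis) of the 15 genes furthest above KO in PM among those whose PM and KO values do not overlap, with 1 dot per array, a bar at the mean and 4 arrays a group. Il4 has KO and het arrays together below all PM arrays, whereas Cish and Plscr1 have PM and het arrays together above all KO arrays.

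Of the list of cytokines and chemokines, 7 of 27 genes tested rose in PM (25.9%, against 1.37% of all genes), and 0 fell. The 7 were Il4, Il3, Ifng, Ccl3, Lif, Csf2 and Ccl1. The median difference over the 27 was 0.53, against -0.003 over all genes, and 23 of the 27 were above 0. Members that did not pass included Ccl4, with a difference of 1.29 (limma adjusted p = 0.347), and Tnf, with 0.22 (adjusted p = 0.891). The list's median by array reached from 0.02 to 0.63 in PM and from -0.70 to 0.02 in KO, relative to the mean of the 8 arrays, and the groups overlapped.

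Some genes that act on cytokine signals rose. Others did not pass, such as Stat3 (0.28), Socs1 (0.63) and Il6st (-0.49), at a limma adjusted p of 0.891, 0.15 and 0.255. Cish encodes an SH2 protein that STAT5 induces and that holds back cytokine receptors. It was at 11.50, 10.58, 11.64 and 11.23 in PM and at 9.59, 8.63, 9.01 and 9.01 in KO, separate groups with a difference of 2.18 ± 0.26 (limma adjusted p = 1.98e-06). For Cish the het mean of 11.14 was at the PM level, and KO less het was -2.08 (adjusted p = 1.27e-06) while PM differed from het by 0.09 (adjusted p = 0.999). The kinase gene Jak2 was at 10.72, 10.42, 10.86 and 10.54 in PM against 9.95, 9.45, 9.71 and 9.80 in KO (0.91 ± 0.16, adjusted p = 0.000582), with het at 10.84, and was picked after its value was seen. Insl6, a relaxin family gene that neighbours Jak2 on chromosome 19, was at 9.60, 9.03, 10.04 and 9.39 in PM and 8.34, 7.32, 7.96 and 8.13 in KO (1.58 ± 0.23, adjusted p = 3.54e-05), but its het mean of 7.48 was nearer KO. Il2ra, the alpha chain of the IL-2 receptor, was 8.45, 8.10, 8.80 and 8.44 against 7.67, 7.64, 8.23 and 7.88, overlapping groups whose difference of 0.59 passed (adjusted p = 0.0354) in the reported setting and in 10 of 20 others.

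The transcription factors that direct T helper 2 and T helper 1 cells were both higher. Gata3 was at 9.54, 7.95, 9.32 and 8.45 in PM and at 8.05, 6.93, 7.75 and 6.96 in KO, and the groups overlapped (1.39 ± 0.35, limma adjusted p = 0.0226). Tbx21, which encodes T-bet, was at 7.07, 7.12, 7.59 and 7.62 against 6.92, 5.57, 6.08 and 6.49, and the groups were separate by a small gap (1.09 ± 0.27, adjusted p = 0.0191). The call for Gata3 held in 12 and that for Tbx21 in 13 of 20 alternatives, and both were lost without the PM array of E5 or without the KO array of E4. Of the T helper lineage list, 4 of 17 genes rose (Il4, Ifng, Gata3 and Tbx21) and 0 fell, with a median of 0.27. The share that rose was 23.5%, against 1.37% of all genes.

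Other large rises were those of Prnp, Lad1 and Jaml. Prnp, the prion protein, was at 10.82, 9.63, 10.07 and 10.29 in PM and between 7.76 and 8.15 in KO (2.19 ± 0.37, limma adjusted p = 0.000272). Lad1, ladinin-1 of the basement membrane, was at 8.26, 6.86, 8.15 and 8.08 against 5.41, 4.84, 6.10 and 6.38. All PM arrays of Lad1 were above all KO arrays (2.15 ± 0.29, adjusted p = 1.26e-05), and both groups were below the het mean of 8.92, with -1.08 for PM (adjusted p = 0.029) and -3.23 for KO (adjusted p = 2.31e-09). Jaml, an adhesion receptor of T cells and leukocytes, was at 8.27, 6.93, 7.82 and 7.18 in PM and between 5.36 and 5.80 in KO (1.99 ± 0.25, adjusted p = 4.5e-06). These groups were separate as well, and the het mean of Jaml, 6.12, lay between them.

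Further genes higher in PM were interferon-inducible genes and H2-DMa. Against 0 h, the level of H2-DMa at 4 h was lower in PM (-1.82), in KO (-2.26) and in het (-2.90). For Usp18 the same values were -0.70 in PM, which did not pass (limma adjusted p = 0.0962), -1.59 in KO and -2.29 in het. Usp18, which removes ISG15 from proteins and dampens interferon receptor signals, was at 9.65, 8.27, 9.11 and 9.06 in PM against 7.97, 6.91, 7.07 and 7.18 in KO (1.74 ± 0.35, limma adjusted p = 0.00285), and its 2 further probes gave 1.52 and 1.195. H2-DMa, a chain of the molecule that loads peptides on MHC class II, was at 10.11, 8.55, 8.88 and 9.81 against 7.81, 6.87, 7.69 and 8.22 (1.69 ± 0.34, adjusted p = 0.00307). The groups were separate for both genes, and the het means, 6.83 for Usp18 and 6.92 for H2-DMa, were below KO. Other genes of antigen presentation did not pass, among them H2-Ab1 (0.35, adjusted p = 0.977), Cd74 (0.40, adjusted p = 0.93), Tap1 (0.55, adjusted p = 0.566) and Psmb8 (-0.25, adjusted p = 0.879). Plscr1, an interferon-inducible scramblase gene, was at 7.90, 6.97, 8.21 and 8.07 in PM and at 6.10, 5.56, 6.56 and 6.58 in KO (1.59 ± 0.32, adjusted p = 0.00286). In contrast to Usp18, its het mean was at the PM level (7.82). The guanylate-binding protein genes Gbp11 (1.57 ± 0.21, adjusted p = 1.26e-05) and Gbp5 (1.38 ± 0.23, adjusted p = 0.000301) also rose, with KO detected on 1 and on 3 of 4 arrays. Apart from that KO array, Gbp11 was detected only on the 4 PM arrays at 4 h and on 1 PM array at 1 h. It met the detection filter only through the PM arrays at 4 h. With KO at a mean of 4.52 and het at 4.24, background limits its difference.

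Of 43 interferon-stimulated genes tested, 3 passed (Usp18, Gbp5 and the interferon-inducible GTPase gene Gvin1), all higher. That is 6.98%, against 1.37% of all genes. A difference above 0 was seen for 40 of the 43, with a median of 0.49. Isg15 had a difference of 1.07 and did not pass (limma adjusted p = 0.203). Before stimulation the median of the same list was 0.40, so a difference of like size was there at 0 h. Gvin1 passed at all 3 times, with differences of 1.38 before stimulation (adjusted p = 0.0141), 1.502 after 1 h (adjusted p = 0.0104) and 1.04 after 4 h (adjusted p = 0.0176). By array the list's median was from -0.04 to 0.54 in PM and from -0.48 to 0.11 in KO relative to the mean of the 8 arrays, and the groups overlapped.

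Promoters were read for motifs of the factors that act below the antigen receptor. RefSeq promoters (GRCm38.p6, 250 bases before to 50 after the start of a gene) matched 90 of the 104 higher genes, 90 of the 109 lower genes and 6274 of all 7585 genes. The broad kappaB pattern, GGG and CC with any 5 bases between, stood on either strand of 65.6% of the higher, 70% of the lower and 66.9% of all promoters. The narrower one, GGG, any 2 bases and TTTCC, a subset of the broad one, stood in 3.33%, 1.11% and 1.55%. The AP-1 pattern TGANTCA was found in 9 of 90 higher (10%), 6 of 90 lower (6.67%) and 312 of 6274 promoters (4.97%). The interferon response pattern, GAAA and GAAA with any 2 bases between, was found in 3.33%, 2.22% and 3.35%, and the CRE pattern TGACGTCA in 1.11%, 3.33% and 3.27%. The 250 bases before the start are printed for the largest rise (Il4), for Prnp and Lif, among the 15 largest rises, which hold an AP-1 match, and for Gbp5 and Tank, which hold the narrower kappaB pattern. Capitals mark matches of the narrower kappaB, AP-1, interferon response and CRE patterns, on either strand. Matches of the broad kappaB pattern alone are not marked.
Il4, chr11:53617339-53617588, minus strand, no match of the narrower kappaB, AP-1, interferon response or CRE pattern: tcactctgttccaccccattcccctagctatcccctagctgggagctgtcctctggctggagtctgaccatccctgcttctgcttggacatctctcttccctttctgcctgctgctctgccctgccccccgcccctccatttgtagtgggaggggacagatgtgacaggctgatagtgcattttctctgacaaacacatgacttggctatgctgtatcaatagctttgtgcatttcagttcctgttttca
Prnp, chr2:131909678-131909927, plus strand, AP-1 match starting 102 bases before the start: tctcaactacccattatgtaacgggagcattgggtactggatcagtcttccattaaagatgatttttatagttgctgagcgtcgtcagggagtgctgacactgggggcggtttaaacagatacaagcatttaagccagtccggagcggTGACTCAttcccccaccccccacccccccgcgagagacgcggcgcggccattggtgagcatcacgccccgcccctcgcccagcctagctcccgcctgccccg
Lif, chr11:4257318-4257567, plus strand, AP-1 match starting 228 bases before the start: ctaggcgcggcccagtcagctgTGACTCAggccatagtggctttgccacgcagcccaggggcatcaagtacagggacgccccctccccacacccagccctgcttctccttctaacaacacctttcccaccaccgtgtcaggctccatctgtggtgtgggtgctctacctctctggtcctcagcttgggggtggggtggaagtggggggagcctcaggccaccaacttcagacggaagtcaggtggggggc
Gbp5, chr3:142496684-142496933, plus strand, kappaB match starting 77 bases and interferon response match 165 bases before the start: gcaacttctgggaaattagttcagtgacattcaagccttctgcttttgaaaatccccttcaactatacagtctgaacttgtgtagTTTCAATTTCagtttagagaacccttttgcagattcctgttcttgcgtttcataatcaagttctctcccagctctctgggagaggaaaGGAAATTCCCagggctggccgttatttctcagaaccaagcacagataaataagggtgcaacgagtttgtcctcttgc
Tank, chr2:61592847-61593096, plus strand, kappaB match starting 72 bases before the start: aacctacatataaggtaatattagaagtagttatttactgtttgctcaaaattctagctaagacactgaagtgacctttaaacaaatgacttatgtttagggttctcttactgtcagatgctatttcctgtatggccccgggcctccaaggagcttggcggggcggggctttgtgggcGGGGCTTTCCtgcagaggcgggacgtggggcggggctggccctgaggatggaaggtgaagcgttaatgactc
The kappaB match of Gbp5 and that of Tank stand beside differences of 1.38 and 0.73 at 4 h, and the AP-1 matches of Prnp and Lif beside 2.19 and 1.81. A match is a run of letters in this window and no evidence of binding.

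The largest fall was that of Cldn10. Its log2 signal was 6.13, 5.29, 5.53 and 6.29 in PM and 8.84, 8.24, 8.20 and 8.60 in KO, separate groups that were 2.66 ± 0.20 apart (limma adjusted p = 1.51e-10). The het mean was 5.95, so PM differed from het by -0.13 (adjusted p = 0.984) and KO by 2.53 (adjusted p = 3.01e-10). Akr1c18, an aldo-keto reductase that inactivates progesterone, was at 6.36, 7.23, 7.09 and 7.16 against 9.44, 9.24, 8.99 and 9.01. The difference was -2.21 ± 0.21 ( adjusted p = 2.34e-08), again with het (6.83) at the PM level.

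The 15 largest falls held further enzyme genes, which form no list that was tested, and enzyme genes such as Hk2 (1.02) and Idi2 (1.10) were higher in PM. Dhrs1, a short-chain dehydrogenase, was at 6.89, 7.90, 7.04 and 7.60 in PM and at 8.64, 9.47, 9.15 and 9.27 in KO (-1.78 ± 0.27, limma adjusted p = 6.61e-05). Ephx1, the microsomal epoxide hydrolase, was at 8.01, 8.23, 8.28 and 8.79 against 9.49, 9.83, 10.11 and 10.37 (-1.63 ± 0.19, adjusted p = 1.67e-06). Bdh2, a hydroxybutyrate dehydrogenase, was at 6.53, 7.06, 7.36 and 7.07 against 8.31, 7.89, 8.30 and 8.44 (-1.23 ± 0.17, adjusted p = 1.87e-05). For each of these genes the 4 KO arrays were above the 4 PM arrays, as the rule for the 15 largest falls requires. The het means of 7.06, 8.57 and 6.87 were nearer PM than KO. Angptl4, a secreted inhibitor of lipoprotein lipase, was at 5.29, 4.78, 5.22 and 5.82 in PM and between 6.45 and 7.06 in KO (-1.38 ± 0.20, adjusted p = 5.75e-05).

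**Figure D3:**
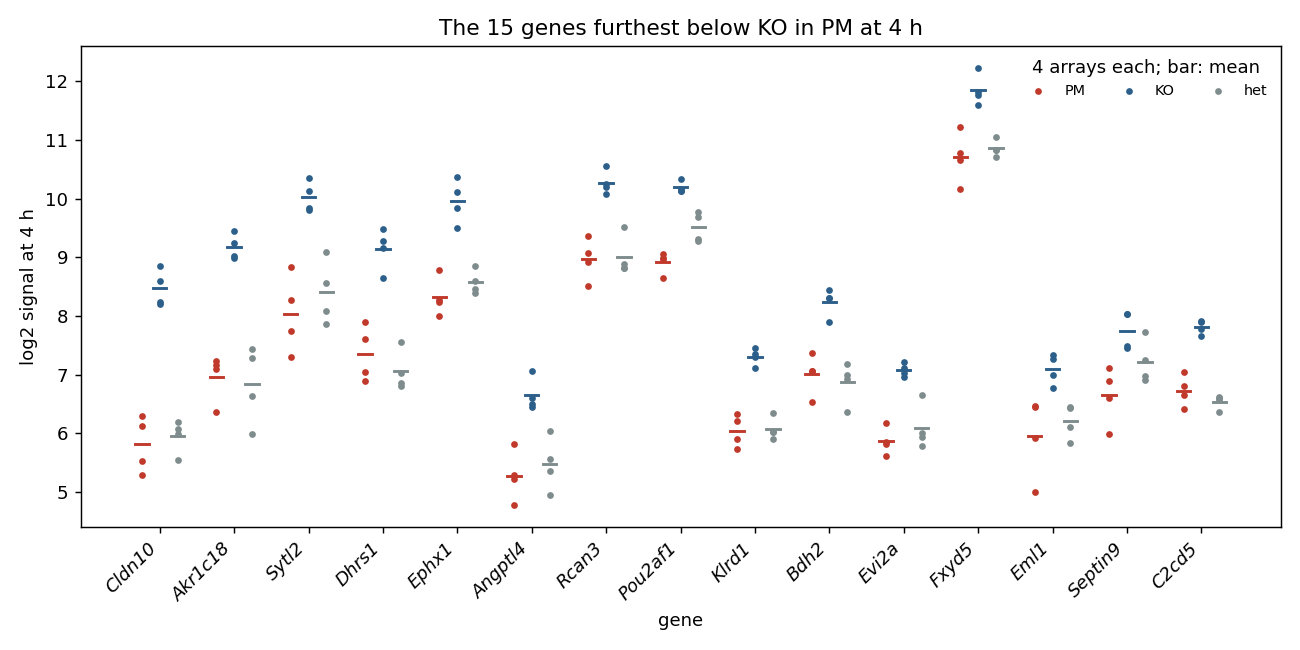
Log2 signal at 4 h (y axis) of the 15 genes furthest below KO in PM among those whose values do not overlap, with 1 dot per array, a bar at the mean and 4 arrays a group. The PM and het arrays lie together below the KO arrays for Cldn10, Akr1c18, Dhrs1 and Rcan3, and the het arrays of Pou2af1 and Septin9 lie between or across the other groups.

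Sytl2 encodes a synaptotagmin-like effector of the vesicle GTPase RAB27A. It was at 7.75, 8.83, 7.30 and 8.27 in PM and at 9.84, 10.35, 10.13 and 9.81 in KO (-1.99 ± 0.30, limma adjusted p = 5.87e-05). Its relative Sytl3 and Rab27a itself went the other way, Sytl3 with 6.41, 6.47, 6.61 and 6.99 against 5.38, 5.06, 6.30 and 5.84 (0.98 ± 0.26, adjusted p = 0.0292) and Rab27a with 9.52, 8.91, 8.86 and 9.33 against 7.999, 8.34, 8.69 and 8.65 (0.73 ± 0.21, adjusted p = 0.0482). The groups were separate for all 3 genes. Sytl3 and Rab27a were picked after their values were seen.

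The genes of the 3 CD3 chains and Cd28 fell by smaller steps on a high level. Cd3g was at 11.60, 11.46, 11.58 and 11.36 in PM and at 12.26, 12.44, 12.23 and 12.13 in KO (-0.76 ± 0.11, limma adjusted p = 5.84e-05). Cd3d was at 11.59, 11.68, 11.44 and 11.78 against 12.28, 12.16, 12.09 and 12.28 (-0.58 ± 0.10, adjusted p = 0.000582), and Cd3e at 10.98, 11.004, 10.71 and 10.93 against 11.40, 11.49, 11.34 and 11.47 (-0.52 ± 0.10, adjusted p = 0.00207). The 3 CD3 genes lie side by side on chromosome 9, and in each the PM and KO arrays were separate. Cd28, the costimulatory receptor, was at 10.59, 10.68, 10.33 and 10.33 against 11.38, 11.39, 11.09 and 10.79 (-0.68 ± 0.17, adjusted p = 0.0229). All 4 genes were lower in het than in KO, with het means of 11.35, 11.41, 10.72 and 9.98. None of these 4 calls held when arrays were scaled to a common median, where Cd3g differed by -0.55 and Cd28 by -0.54.

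Of the T cell identity list, 4 of 16 genes fell (Cd3g, Cd28, Cd3d and Cd3e) and 1 rose (Gata3), with a median of -0.32. These shares were 25% lower and 6.25% higher, against 1.44% and 1.37% of all genes. By array its median was between -0.23 and -0.09 in PM and between 0.07 and 0.28 in KO relative to the mean of the 8 arrays, and the groups did not overlap. With a common median the list's median was -0.17. Thy1, another member, had a difference of 0.64 and did not pass (limma adjusted p = 0.12), nor did Cd247, which encodes the zeta chain (0.64, adjusted p = 0.981). Trat1, an adaptor of the T cell receptor that is in no list and was picked after its value was seen, was higher in PM, at 10.94, 10.44, 10.09 and 9.72 against 9.42, 8.998, 8.92 and 8.35 (1.37 ± 0.35, adjusted p = 0.0226). The costimulatory receptor genes Tnfrsf4 (0.89) and Cd226 (0.97) were higher as well.

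Single signalling genes passed in either direction. Rcan3, a regulator of the phosphatase calcineurin, was at 9.07, 9.35, 8.51 and 8.92 in PM and at 10.25, 10.55, 10.08 and 10.20 in KO (-1.31 ± 0.19, limma adjusted p = 3.77e-05). Nfatc1, the transcription factor that calcineurin activates, was at 10.21, 10.12, 10.04 and 10.30 against 10.73, 10.65, 10.58 and 10.95 (-0.56 ± 0.15, adjusted p = 0.0331), a call that held in 10 of 20 alternatives. Mapk14, the p38 alpha kinase, was at 8.90, 8.63, 8.57 and 8.90 against 9.85, 9.56, 9.97 and 9.81 (-1.05 ± 0.14, adjusted p = 1.75e-05). Dgka, a kinase that removes diacylglycerol, was at 10.80, 10.53, 9.87 and 10.85 against 11.31, 11.25, 11.40 and 11.51 (-0.85 ± 0.18, adjusted p = 0.00393), whereas Rasgrp1, a Ras activator that diacylglycerol recruits, was 0.56 higher in PM (adjusted p = 0.0465). The PM and KO arrays were separate for Rcan3, Nfatc1, Mapk14 and Dgka. Mapk14, Dgka and Rasgrp1 were picked after their values were seen. The receptor kinase gene Zap70 (-0.35, adjusted p = 0.403) and the adaptor genes Lat (-0.50, adjusted p = 0.344) and Lcp2 (0.59, adjusted p = 0.543) did not pass.

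Some genes for proteins of the actin cytoskeleton passed in either direction; they were picked after their values were seen and form no list that was tested. Scin, an actin-severing protein, was higher in PM, at 5.87, 5.38, 5.80 and 6.20 against 4.61, 4.51, 5.18 and 4.85 (1.03 ± 0.26, limma adjusted p = 0.0226), and it had passed at 0 h as well. Lower was Zyx, the focal adhesion protein zyxin, at 9.78, 9.86, 9.88 and 10.11 against 10.55, 10.95, 10.99 and 11.15 (-1.001 ± 0.17, limma adjusted p = 0.000425). So was Mical1, an enzyme that takes actin filaments apart, at 6.70, 6.30, 6.03 and 6.47 against 7.52, 7.16, 7.29 and 7.36 (-0.95 ± 0.14, adjusted p = 5.75e-05). The PM and KO arrays were separate for these 3 genes. Lower in PM as well were the actin-binding Cotl1 (-0.90, adjusted p = 0.0318) and the myosin light chain gene Myl6 (-0.54, adjusted p = 0.0112). The housekeeping genes had 0 calls of 9 (1 at an unadjusted p under 0.05) and a median of 0.01, with Actb at -0.35 (adjusted p = 0.67).

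The remaining large falls were of mixed function. Klrd1, which encodes CD94 of NK and CD8 T cells, was at 6.20, 5.90, 5.74 and 6.32 in PM and at 7.30, 7.45, 7.11 and 7.35 in KO (-1.26 ± 0.22, limma adjusted p = 0.000576). Pou2af1, a coactivator of octamer-binding factors known from B cells, was at 8.99, 8.65, 8.96 and 9.05 against 10.13, 10.17, 10.33 and 10.13 (-1.27 ± 0.34, adjusted p = 0.035). Its groups were far apart, yet the call held in 9 of 20 alternatives and was lost without any one of the 8 arrays. It was kept when only the 8 arrays were in the fit. The SE of 0.34 comes from the spread within all groups of the series, not within these PM and KO arrays alone. Fxyd5, a modulator of the sodium pump, differed by -1.15 ± 0.19 (adjusted p = 0.000176), and Atp1b1, a subunit of that pump that was picked after its value was seen, by -0.86 ± 0.14 (adjusted p = 0.000176). Evi2a (-1.21), Eml1 (-1.13), Septin9 (-1.10) and C2cd5 (-1.09) were also among the 15 largest falls.

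The comparison was also read at 0 and 1 h. PM against KO gave 5 calls of 7585 at 0 h (0.0659%), all higher in PM, and 1 at 1 h (0.0132%), higher. At an unadjusted p under 0.05 there were 248 genes at 0 h and 332 at 1 h. Over the 104 genes higher at 4 h the median difference was 0.76 at 4 h, 0.17 at 1 h and 0.15 at 0 h. Over the 109 lower genes it was -0.74 at 4 h, -0.07 at 1 h and -0.05 at 0 h. The difference at 4 h was itself tested against that at 0 h, and 28 genes passed (0.369%), 8 with a difference higher at 4 h (0.105%) and 20 lower (0.264%). That count was 9 without the PM array of E3, 12 without that of E5, 18 without the KO array of E4, 17 without that of E6 and 3 with arrays scaled to a common median. Il4 differed by 2.49 more at 4 h than at 0 h (limma adjusted p = 0.00894), Il3 by 2.20 (adjusted p = 0.0025), Cldn10 by -2.23 (adjusted p = 5.06e-05), Akr1c18 by -2.19 (adjusted p = 7.69e-05) and Dhrs1 by -1.83 (adjusted p = 0.0212). Ifng (1.57, adjusted p = 0.205), Usp18 (0.89, adjusted p = 0.999) and H2-DMa (0.44, adjusted p = 0.999) did not pass this test. H2-DMa already stood 1.25 apart before stimulation, and Il4 1.59 apart after 1 h, and neither difference passed (adjusted p = 0.301 and 0.0631).

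**Figure D4:**
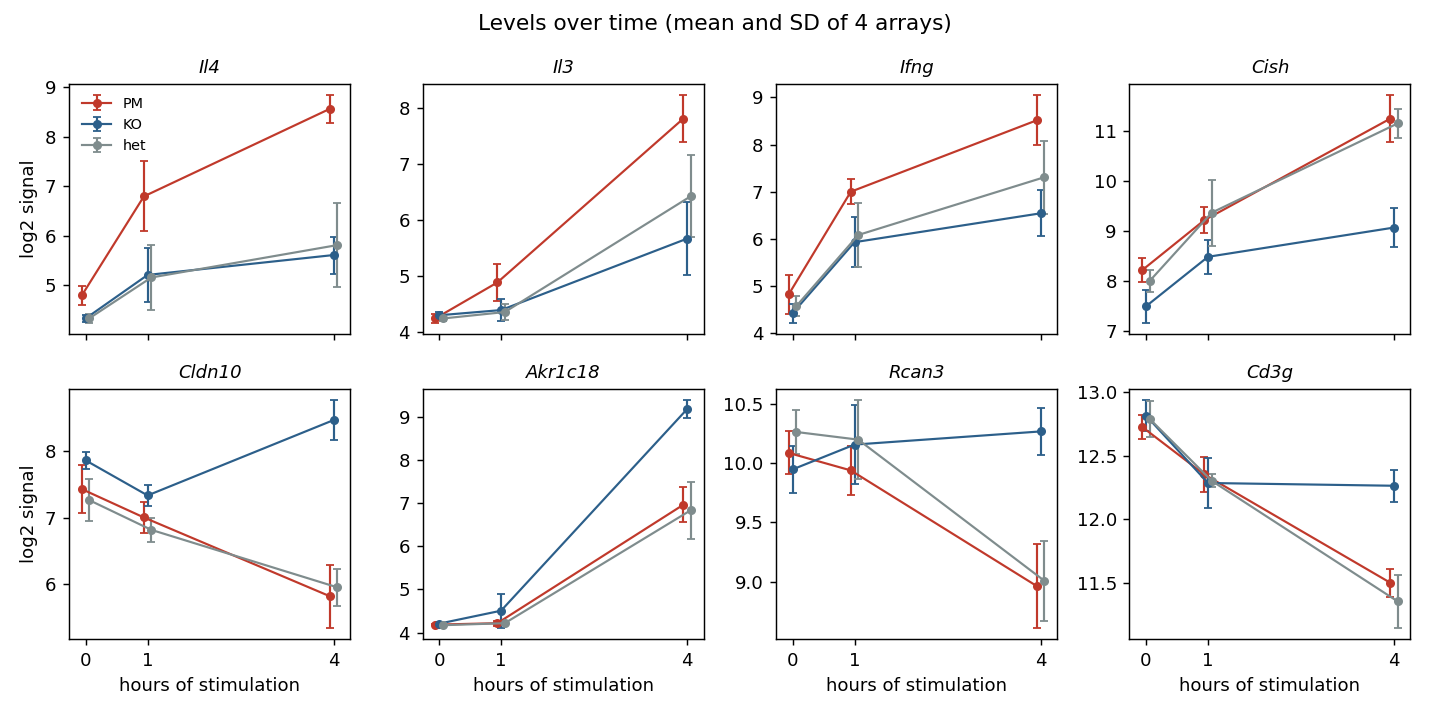
Log2 signal (y axis, mean and SD of 4 arrays) at 0, 1 and 4 h of stimulation (x axis) in PM, KO and het for 8 genes. The lines of Il4, Il3 and Ifng part as PM rises above the others, and those of Cldn10, Akr1c18, Rcan3 and Cd3g part at 4 h as KO stays or moves above PM and het.

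The het level placed the differences in more than 1 way. PM against het and KO against het at 4 h share the PM and KO arrays with PM against KO, so their values are given side by side and no overlap is read from them. Over all genes PM against het gave 215 calls (2.83%), 2.03% higher and 0.804% lower, and KO against het 663 (8.74%), 5.15% higher and 3.59% lower. For Il4, Jaml and Csf2 it was PM that passed against het (2.75, 1.43 and 1.23, limma adjusted p = 2.84e-06, 0.000484 and 0.00022), and KO was at -0.20, -0.56 and -0.18 (adjusted p = 0.834, 0.186 and 0.708). For Cish and Plscr1 it was KO that passed (-2.08 and -1.62, adjusted p = 1.27e-06 and 0.000859), with PM at 0.09 and -0.03 (adjusted p = 0.999 for both). Usp18, H2-DMa and Insl6 had PM 2.20, 2.42 and 2.03 above het. Tnfrsf4, the costimulatory receptor OX40, was graded, with PM at -0.94 from het (adjusted p = 0.00317), KO at -1.82 (adjusted p = 6.52e-08) and PM 0.89 above KO (adjusted p = 0.00586).

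By level alone, the het mean lay nearer the PM than the KO mean for 97 of the 109 lower genes (89%) and 53 of the 104 higher genes (51%), against 63.2% of all genes. It lay nearer PM for Ccnd3, the G1 cyclin D3, at 8.25, where PM was at 8.29, 8.39, 7.85 and 8.44 and KO at 8.84, 9.17, 8.97 and 8.89 (-0.73 ± 0.16, limma adjusted p = 0.00533). The het mean of Xbp1, a factor of the unfolded protein response, was 9.92 beside a PM mean of 9.92 and a KO mean of 10.51 (-0.58, adjusted p = 0.00273). Tnfrsf9, the costimulatory receptor 4-1BB, differed in that its het mean of 9.06 lay between PM (8.65) and KO (9.26), and its groups overlapped (-0.61, adjusted p = 0.0465). The call for Tnfrsf9 held in 10 of 20 alternatives.

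How the genes of the normal response behaved was read from het cells, whose arrays enter neither the PM nor the KO mean. Among genes called higher in PM, 64 were raised in het at 4 h against 0 h, 18 were lowered and 22 did neither. Among those called lower, 74 were lowered in het, 21 were raised and 14 did neither. Of all genes tested, 26.9% were raised in het and 28.3% lowered, against 61.5% raised among the higher and 67.9% lowered among the lower genes. Of 917 genes that het cells raised at least 2-fold, 50 were higher in PM than in KO and 7 lower, with a median difference of 0.19, and 758 were above 0. Of 1075 genes that het cells lowered at least 2-fold, 14 were higher and 56 lower, with a median of -0.14. The other 5593 genes had 40 higher, 46 lower and a median of -0.01. Scaling to a common median turned these counts into 18 and 1 among the raised genes and 1 and 3 among the lowered genes, and the medians into 0.35 and -0.06. The 50 higher among raised genes became 21 without the PM array of E5, 30 without that of E6 and 25 without the KO array of E4. The 14 higher among lowered genes became 5 without the PM array of E3, 7 without the KO array of E4 and 9 without that of E6, and the 56 lower became 32 without the PM array of E5.

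**Figure D5:**
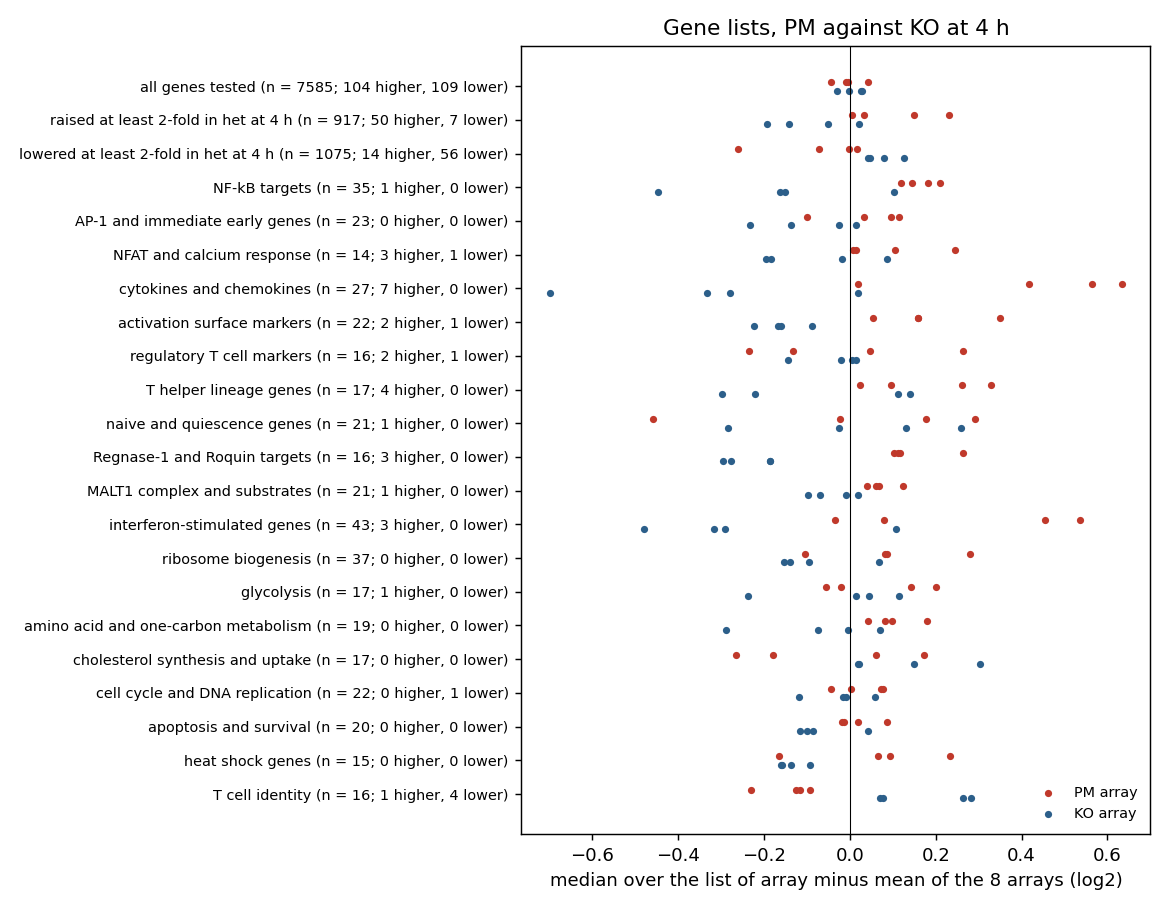
Median over each gene list of the array's log2 signal minus the mean of the 8 arrays (x axis), with 1 red dot per PM array and 1 blue dot per KO array, and the number of genes tested and called beside the list's name. PM arrays lie above KO arrays without overlap for the NF-kB targets, the activation surface markers, the Regnase-1 and Roquin targets and the MALT1 complex and substrates, and below them for T cell identity and for genes lowered in het.

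NF-kB targets, the best known output of MALT1, gave 1 call of 35 tested, Ccl3. That is 2.86%, near the 2.81% of all genes called in either direction. Of the 35, 32 had a difference above 0, with a median of 0.30. The list's median was between 0.12 and 0.21 on PM arrays and between -0.45 and 0.10 on KO arrays relative to the mean of the 8 arrays. Named members that did not pass were Icam1, an adhesion molecule, at 1.09 (limma adjusted p = 0.0576), Tnfaip3, which encodes A20, at 0.85 (adjusted p = 0.524), and Nfkbia, which encodes IkB alpha, at 0.40 (adjusted p = 0.644). Rel was at 0.27 and Relb at 0.10. AP-1 and immediate early genes gave 0 calls of 23 with a median of 0.16, and Atf3 (1.41, adjusted p = 0.345), Myc (0.97, adjusted p = 0.59) and Jun (0.70, adjusted p = 0.847) did not pass. At an unadjusted p under 0.05 there was 1 of the 23, against 818 of all 7585 genes. NFAT and calcium response genes gave 3 higher (Il4, Il3 and Csf2) and 1 lower (Nfatc1) of 14, and their median was 0.10. These are 21.4% higher and 7.14% lower, against 1.37% and 1.44% of all genes. The 3 higher genes also belong to the list of cytokines and chemokines. Other members such as Rcan1 (0.18, limma adjusted p = 0.947), Egr2 (0.05, adjusted p = 0.999) and Egr3 (0.08, adjusted p = 0.977) did not pass.

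Activation surface markers had 2 higher (Tnfrsf4 and Il2ra) and 1 lower (Tnfrsf9) of 22, with a median of 0.42, and regulatory T cell markers, which share these 3 genes, had the same calls of 16 with a median of 0.01. For comparison, 1.37% of all genes were higher and 1.44% lower. Foxp3 was at 0.66 (limma adjusted p = 0.224). Of the mRNAs that Regnase-1 and Roquin degrade, 3 of 16 rose (Ifng, Tnfrsf4 and Il2ra) and 0 fell, with a median of 0.25. Zc3h12a, which encodes Regnase-1 itself, was at 0.22 and Bcl10 at -0.23. Among the 21 genes of the MALT1 complex and its substrates 1 passed, Tank, an adaptor that binds TRAF proteins, with 9.16, 8.90, 9.15 and 9.24 in PM and 8.43, 8.35, 8.34 and 8.41 in KO. The groups of Tank were separate by a wide gap (0.73 ± 0.12, adjusted p = 0.000176), and the median of the list was 0.10.

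Growth and metabolism lists gave few calls, where 1.37% of all genes were higher and 1.44% lower. Glycolysis had 1 of 17, Hk2, which starts glucose breakdown, with 9.96, 9.67, 10.07 and 10.10 in PM against 8.47, 8.91, 9.17 and 9.16 in KO (1.02 ± 0.28, limma adjusted p = 0.042, held in 10 of 20 alternatives), and a median of 0.05. Among the 17 are Pigq (-0.09) and Eno1b (0.30), which older symbols matched to the entries Gpi1 and Eno1. Pigq is not the glycolysis gene that the entry meant, so the count and median include it wrongly. Ribosome biogenesis had 0 of 37 with a median of 0.14, amino acid and one-carbon metabolism 0 of 19 with 0.19, and cholesterol synthesis and uptake 0 of 17 with -0.19. Msmo1, a sterol oxidase, differed by -0.54 (adjusted p = 0.431), and Slc7a5, an amino acid transporter, by 0.27 (adjusted p = 0.512). Cell cycle and DNA replication had 0 higher and 1 lower of 22, Ccnd3, with a median of 0.07. Apoptosis and survival had 0 of 20 (median 0.11) and heat shock genes 0 of 15 (median 0.18), with Bcl2l1, the survival gene of BCL-XL, at 0.76 (adjusted p = 0.658). At an unadjusted p under 0.05 the lists with 0 calls had 5 genes for ribosome biogenesis, 0 for amino acids, 5 for cholesterol, 2 for apoptosis and 1 for heat shock. Of all 7585 genes, 818 reached it. Among lists with calls, it was reached by 20 of 43 interferon-stimulated genes, 13 of 27 cytokines and chemokines and 11 of 16 T cell identity genes. Lower counts were 6 of 35 NF-kB targets, 4 of 17 glycolysis genes and 2 of 22 cell cycle genes. Naive and quiescence genes had 1 higher of 21, Igfbp4 (0.88, adjusted p = 0.0209, held in 12 of 20 alternatives), with a median of 0.07.

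Markers of other cells were followed on the same arrays, where 1.37% of all genes were higher in PM and 1.44% lower. B cell markers had 0 higher and 1 lower (Pou2af1) of 15, with a median of 0.14. Their summed signal ranged from 2594 to 8715 over PM arrays and from 2687 to 8906 over KO arrays. Cd79a, Cd79b and Fcer2a were detected on all 8 arrays, as were Cd74, H2-Ab1 and H2-Eb1. Ms4a1, which encodes CD20, was detected on 0 of 8. Myeloid and dendritic cell markers had 1 higher (Ly6c1, which T cells also express) of 22, with a median of -0.16 and summed signals of 2399 to 4091 in PM and 1874 to 3740 in KO. The call for Ly6c1 held in 8 of 20 alternatives. CD8 T cell markers had 1 lower (Klrd1) of 8, plasma cell markers 1 lower (Xbp1) of 3, and CD4 (3 tested), NK (4), gamma-delta (2) and erythroid markers (3) had 0, with 1 NK marker and 0 of the others at an unadjusted p under 0.05. Cd3g, Cd3d and Cd3e were bright on all 8 arrays, Cd8b1 was detected on all 8 and Cd4 on 3 PM and 2 KO arrays, while the probe of Cd8a was detected on none. The part of these other cells in the differences above was not tested.

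Malt1 lies on chromosome 18, where 6 of 166 genes passed (3.61%, against 2.81% of all genes). Higher in PM were Cd226, a costimulatory receptor (0.97 ± 0.22, limma adjusted p = 0.0102), the urea transporter gene Slc14a1 (0.91), Pard6g (0.71) and Ppic (0.66), and lower were Bin1 (-1.07 ± 0.18, adjusted p = 0.000225) and Nfatc1. The call for Ppic held in 5 and that for Pard6g in 8 of 20 alternatives.

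For 12 of the 213 genes 1 group had no array above background, KO for 8 and PM for 4. The fold given is then a minimum, set from the mean of the brighter group and the lowest signal above background on the dim arrays or the probe's own signal where that was higher. Serpinb6b, a serpin gene, was at least 1.52-fold higher in PM (limma adjusted p = 0.035), Utf1 at least 1.44-fold (adjusted p = 0.017) and Efna5, an ephrin ligand, at least 1.31-fold (adjusted p = 0.00432). Mmp13, Mmp10, Klrb1f, Prodh and Ankrd6 had bounds from 1.01 to 1.27. Mmp14, a membrane-bound matrix protease, was at least 1.44-fold lower in PM (adjusted p = 0.00621), Chn2, a Rac-directed GTPase activator, at least 1.39-fold (adjusted p = 0.00372) and Rnft1 at least 1.04-fold, and H2al1e had no bound above 1.

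Where a called gene had further probes that passed the detection filter, 92 probes of 62 genes, 86 had the sign of the probe used and 6 the opposite one, in Add1, Atp2a3, Bin1, Dnmt3b, Glipr2 and Slc44a2. The 17 genes Il4, Prnp, Cish, Lad1, Il3, Jaml, Ifng, Lif, Plscr1, Insl6, Gbp11, Csf2, Cldn10, Akr1c18, Dhrs1, Ephx1 and Angptl4 passed in all 20 alternatives in which they were recomputed. Of these, Gbp11 met the detection filter only through the PM arrays at 4 h, the group where it is high. Usp18 was lost under 2 of them, a common median and the mean over its probes, and H2-DMa under 1, the fit with only the 8 arrays.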

How the data were processed

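RNA was extracted with Trizol and RNeasy and made into biotin-labelled cRNA with an Ambion MessageAmp kit, per the labels' protocols, and read on Illumina bead arrays with GenomeStudio 2011.1, per the submitters' processing notes. The authors deposited a raw mean intensity and a detection p-value for each of 25697 probes on each of 36 arrays, and a second table of processed intensity values whose method is not given in the sources used here. That table holds negative values and has the same upper quartile, 42.6, on every array. All per-sample columns were mapped to a sample by name, and 0 were left out.

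From the deposited raw intensities and detection p-values, background correction, quantile normalization and log2 transformation were done with neqc (offset 16) in limma 3.58.1 under R 4.3.3, with statmod 1.5.0 for the random block. The platform annotation gave 23978 probes 1 symbol, 0 several and 1719 none, and 23962 of the symbols were found in RefSeq (GRCm38.p6). A detection p under 0.01 on at least 4 arrays kept 10961 probes, 10314 of them with a symbol, and the brightest probe of each gene was used (1985 genes had over 1), which left 7585 genes. A single limma fit covered all 36 arrays in 9 groups of 4 (27 residual degrees of freedom), and a p-value under 0.05 after Benjamini-Hochberg adjustment counted as passed. The number of arrays limits the precision. The procedure was tested on simulated data.

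Named are the 15 largest rises and falls whose values do not overlap, Malt1, members of each gene list (up to 6 that passed, otherwise the 3 largest), genes of the largest change in difference between 0 and 4 h and calls on the chromosome of Malt1. Other named genes were chosen after their values were seen. The groups, the gene lists and the rule were chosen with earlier results of these data known. Lists share members, and T cell identity, marker and response lists overlap with others. Alternatives covered scaling, background, filter, arrays in the fit, array weights, the replicate number, probe averaging and leaving out each array.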

Additional observations from a re-analysis of the deposited data

Results flagged for a closer look

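For 8 of the 144 groups of 4 arrays formed by the 72 named genes in PM and KO, 1 array stood far from the other 3 by Dixon's test, which chance does in about 1 in 20 groups. In PM these were Lad1 at 6.86 in E4 (others 8.08 to 8.26), Ifng at 9.32 in E5 (8.18 to 8.29) and Akr1c18 at 6.36 in E3 (7.09 to 7.23). The PM array of E6 stood apart for Myc at 7.16 (8.64 to 8.82), Nop56 at 7.59 (10.15 to 10.37) and Shmt1 at 5.24 (7.61 to 7.73), none of which passed. In KO, Jun was at 5.52 in E4 (6.34 to 6.50) and Ly6c1 at 10.47 in E3 (8.80 to 9.06).

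For 28 genes the difference of PM from KO at 4 h, less that at 0 h, passed its own test (limma adjusted p from 5.06e-05 to 0.0479). It was higher at 4 h for Il4 (2.49), Il3 (2.20), Lad1 (1.89), Jaml (1.57), Csf2 (1.34), Gbp11 (1.27), Gpr183 (1.23) and Idi2 (1.07). It was lower at 4 h for Cldn10 (-2.23), Akr1c18 (-2.19), Dhrs1 (-1.83), Angptl4 (-1.72), Rcan3 (-1.45), Ephx1 (-1.34), Tiam1 (-1.29), Bdh2 (-1.20), Fxyd5 (-1.18), Eml1 (-1.16) and Gstp3 (-1.15). Smaller values of the same sign were those of Mical1 (-1.09), Evi2a (-1.07), Ncmap (-1.05), Ublcp1 (-1.04), Arhgap25 (-1.01), Arhgdib (-0.88), S100a11 (-0.87), Mgarp (-0.85) and Krtcap3 (-0.75). Mgarp, Ncmap and Tiam1 did not pass PM against KO at 4 h alone.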

How the results depend on the processing

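Of the recomputed values of named genes 1231 kept direction and side of the threshold, 176 missed the threshold, 7 newly passed and 3 reversed, namely Atf4 (-0.33 as reported, 0.27 without the PM array of E6, 0.11 without the KO array of E4, from -0.80 to 0.27 over the arrays left out) and Nop56 (0.51, from -0.060 without the KO array of E6 to 1.18), neither of which passed. Calls of PM against KO numbered 213 (104 higher, 109 lower) as reported, 32 (25 and 7) with arrays scaled to a common median, and 56 (22 and 34) with only the 8 arrays. With experiments E3 to E5 only, 54 were higher. Leaving out 1 array gave 114 to 203 calls, 53 to 108 higher and 61 to 108 lower. The change in difference from 0 to 4 h, 28 calls as reported, gave 3 with a common median, 47 with array weights, 8 with E3 to E5 and 9 to 27 without 1 array. For genes raised in het (50 higher, 7 lower, median 0.19) a common median gave 18, 1 and 0.35, the 8 arrays 13 and 3, no background correction 3 lower, E3 to E5 28 higher, and leaving out 1 array 21 to 47 higher and 5 to 8 lower. For genes lowered in het (14 higher, 56 lower) a common median gave 1 and 3, the 8 arrays 2 and 16, no background correction, E3 to E5 and the mean over probes 7, 7 and 8 higher, array weights 93 lower, and leaving out 1 array 5 to 13 higher and 32 to 58 lower. The fit with 8 arrays has fewer samples, and for the other settings the cause was not tested. The experiment numbers were not taken as pairs, since deviations of same-numbered PM and KO arrays correlated at 0.0401 (E3), 0.666 (E4), -0.0686 (E5) and 0.671 (E6), and only those of E4 and E6 correlated best with their own number. The PM array of E3 correlated best with the KO array of E5, and the PM array of E5 with the KO array of E3. Whether numbers were exchanged was not tested. A replicate block over the 36 arrays gave 441 calls (200 higher, 241 lower), 65 for the change from 0 h, 84 higher among raised genes, and 24 higher and 125 lower among lowered genes. As a random effect the replicate block gave 412 (188 and 224), 69, 85, and 22 and 119. Dim probes limit the folds of the 12 genes undetected in 1 group.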
